A study of Mus musculus with 30 samples.

Results

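The IFITM family comprises small membrane proteins that carry a CD225 domain, and its 7 mouse genes in the count table (Ifitm1, Ifitm2, Ifitm3, Ifitm5, Ifitm6, Ifitm7 and Ifitm10) were examined across 5 lines of carcinogen-induced tumors. The members were taken by their gene symbol, so they make up 7 of the 48440 genes in the table. Ifitm1 was the reason for looking at the family, and it was itself chosen by measured values: it had been selected because its RNA was higher in both lines not sensitive to NK cells than in each of the 3 sensitive lines. Its values in those 6 comparisons are therefore given as a description with no test, and the question put to the data was whether its relatives and neighbors moved with it. A filter on low counts left 6 of the 7 members among 16862 genes tested; Ifitm7 did not pass it.

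Bulk mRNA was sequenced from 30 fibrosarcomas that arose from 5 primary lines induced by 3-methylcholanthrene (MCA), all grown in vivo in C57BL/6 mice. The labels mark MCA-943 (4 tumors) and MCA-969 (8 tumors) as not NK cell sensitive, and MCA-948 (8), MCA-970 (6) and MCA-972 (4) as NK cell sensitive. They give the strain Ncr1Cre for MCA-943 and Ncr1Cre R26DTA for the other 4 lines. The labels do not say what the strain refers to. In the paper, MCA was injected into mice of both genotypes, which gave the primary lines. The lines were then transplanted into C57BL/6 mice, so these genotypes belong to the mice of origin. In Ncr1Cre R26DTA mice the Cre recombinase, driven from the Ncr1 (NKp46) gene, switches on diphtheria toxin in NKp46+ cells, so NK cells and other NKp46+ innate lymphoid cells are removed together. The series describes hosts that were wild type or lacked NK cells, and sample titles carry a letter, W or a, whose meaning is not explained; 1 MCA-972 tumor has none. Strain and line cannot be told apart for MCA-943, each line is 1 primary tumor, and p-values measure only the spread between tumors of the same line. In MCA-969, W-1D and W-2D are labelled sensitive, against the other 6 tumors of that line, and they were kept with their line.

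Libraries held between 27745104 and 46537062 counted reads, and the library numbers in the sample descriptions were split into 3 sets at gaps; whether a set was prepared or sequenced together is not stated. The step from set 1 to set 2 is 136 numbers, but that from set 2 to set 3 is 4, against steps of up to 3 inside a set, so the second split is less clear. Set 1 was made up of 4 tumors of MCA-972 with 6 of MCA-969. Set 2 joined all 6 tumors of MCA-970 to 2 of MCA-969 and 2 of MCA-948, and set 3 joined all 4 of MCA-943 to the other 6 of MCA-948. The 2 MCA-969 tumors of set 2 were W-1D and W-2D, those labelled sensitive. Defining fibroblast and mesenchymal markers were abundant in every tumor, at a sum of 14626 to 76396 CPM (reads of a gene relative to the scaled library total, on the usual CPM scale) over 10 genes including Col1a1 and Vim, none of them at 0 throughout. Leukocytes had been depleted with CD45 beads, and 16 leukocyte markers summed to 9.66 to 153 CPM.

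Type I and type II interferons act through JAK kinases and STAT transcription factors, which bind short repeats of GAAA (the interferon-stimulated response element) or a spaced TTC and GAA pair (the GAS element) near their target genes. Ifitm1, Ifitm2 and Ifitm3 are known for restricting the entry of enveloped viruses at the cell surface and in endosomes, and their RNA is induced by interferon in many cells. Ifitm5 acts in osteoblasts and bone mineralization, Ifitm6 is found mainly in myeloid cells, and the roles of Ifitm7 and Ifitm10 are little known.

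On chromosome 7 (build GRCm38, GENCODE release 21), Ifitm5, Ifitm2, Ifitm1, Ifitm3 and Ifitm6 lie side by side in this order within 68967 bases. Ifitm1 occupies positions 140967221 to 140969825 and is the only member of the cluster on the plus strand. Ifitm2 (140954837 to 140955987) and Ifitm3 (141009586 to 141010770) flank it on the minus strand. Ifitm10 is on the same chromosome outside the cluster (142325837 to 142373753), and Ifitm7 is on chromosome 16 (13981699 to 13986888).

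The start regions of Ifitm1 and its flanking genes are shown since the 3 genes differ in the interferon-type repeats they hold. Sequences are from RefSeq (GRCm38.p6), 5′ to 3′ on the strand of the gene, from 150 bases before to 30 bases after the start, and capitals mark each match to GAAANNGAAA.
Ifitm1 (chr7:140967926-140968105, plus strand): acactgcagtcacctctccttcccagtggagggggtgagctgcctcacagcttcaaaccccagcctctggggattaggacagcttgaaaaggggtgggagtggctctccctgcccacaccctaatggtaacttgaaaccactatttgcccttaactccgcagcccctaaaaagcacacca
Ifitm2 (chr7:140955932-140956111, minus strand): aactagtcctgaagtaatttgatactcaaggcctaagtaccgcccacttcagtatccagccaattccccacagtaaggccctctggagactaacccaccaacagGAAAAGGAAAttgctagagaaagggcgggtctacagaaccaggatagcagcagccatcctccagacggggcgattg
Ifitm3 (chr7:141010715-141010894, minus strand): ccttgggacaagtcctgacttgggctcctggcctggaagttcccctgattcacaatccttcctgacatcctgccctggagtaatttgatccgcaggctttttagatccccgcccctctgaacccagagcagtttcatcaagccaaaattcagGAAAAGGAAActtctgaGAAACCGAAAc

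Both strands of the 300-base windows (250 before to 50 after the RefSeq start) were searched. The Ifitm3 window held 2 matches to GAAANNGAAA, at bases 3 to 12 and 20 to 29 after the start, and both continued into the longer form GAAANNGAAACT. The Ifitm2 window held 1 match to the short form, at -46 to -37, and none to the longer form. No match to either form was found in the windows of Ifitm1, Ifitm5, Ifitm6, Ifitm7 or Ifitm10. Over all 32851 windows, 3.44% held the short form and 0.271% the longer one. The GAS letters TTCNNNGAA were found in the windows of Ifitm3, where they overlap both longer repeats (bases 14 to 22), and Ifitm6 (-10 to -2), against 8.3% of all windows. The windows of Ifitm1 and Ifitm6 follow RefSeq starts that lie inside the GENCODE genes, so the letters before their GENCODE starts were not searched.

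Levels within the family differed by orders of magnitude. Per kilobase of exon, which assumes reads along whole transcripts since the library kit is not named, Ifitm3 had a median of 368 CPM per kb over 30 tumors (159 to 1351) and Ifitm2 a median of 156 (110 to 295). Ifitm1 lay far lower, at a median of 1.5 CPM per kb (0.356 to 7.5). Ifitm5 (median 0.292), Ifitm6 (0.174) and Ifitm10 (0.111 CPM per kb) were lower still, and Ifitm7 had 24 reads in total, with 18 of 30 tumors at 0. Of the CPM summed over the family, Ifitm3 made up 52.2 to 84.2%, Ifitm2 15.2 to 46.7% and Ifitm1 0.134 to 1.98%. Ifitm1 thus rested on 14 to 318 reads per tumor, against 3194 to 37393 for Ifitm3, and Ifitm5 and Ifitm6 on at most 19 and 30 reads.

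The genes are close copies, which limits what each count can mean. Of all 50-base stretches in Ifitm2 transcripts, 48.5% also occurred in transcripts of other genes, mostly in Gm45717, an annotated transcript running from Ifitm2 into Ifitm5, and in processed copies elsewhere. The share was 25.3% for Ifitm5, 10% for Ifitm3, 8.85% for Ifitm7, 5.02% for Ifitm1, 3.51% for Ifitm10 and 0% for Ifitm6. The sharing genes of Ifitm1, Ifitm2 and Ifitm3 outside the family each held at most 7 reads in any tumor. How reads matching several genes were counted is not stated, so low counts in the copies do not show that the members received all of their reads, and the level of Ifitm2 against that of Ifitm3 is uncertain. Ifitm7 overlaps 2900011O08Rik on the other strand, which held up to 120 reads, and the strand setting of the counting is not stated, so the few Ifitm7 reads are uncertain.

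Ifitm1, a restriction factor active at the cell surface, separated the lines by the label it was selected on. In MCA-943 its level was 7.22 CPM in W-2G, 5.58 in a-1D, 5.67 in a-1G and 5.27 in a-R. In the 8 MCA-969 tumors it ranged from 2.91 to 8.2 CPM with a median of 4.21. The 2 MCA-969 tumors of opposite label stood at 8.2 (W-1D) and 3.37 CPM (W-2D), within or above the rest of their line. In the sensitive lines it was 0.904 to 1.8 CPM in MCA-948 (median 1.29), 0.515 to 1.71 in MCA-970 (median 0.815), and 2.01 (2G), 0.682 (a-1), 0.954 (a-1G) and 0.39 CPM (a-R) in MCA-972. The lowest of 12 non-sensitive tumors was above the highest of 18 sensitive tumors, as the selection required of the line means.

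By mean level the lines ran MCA-943 (5.93 CPM ± 0.875, SD, n = 4), MCA-969 (4.71 ± 1.73, n = 8), MCA-948 (1.32 ± 0.32, n = 8), MCA-972 (1.01 ± 0.705, n = 4) and MCA-970 (0.916 ± 0.415, n = 6). The differences between the classes were 1.84 to 2.68 on the log2 scale, a description of the values used for the choice. Within the classes, which the choice did not use, no difference passed edgeR's quasi-likelihood test. MCA-943 was 0.33 ± 0.30 (SE) above MCA-969 (adjusted p = 0.34), MCA-948 was 0.51 ± 0.29 above MCA-970 (adjusted p = 0.114) and 0.38 ± 0.33 above MCA-972 (adjusted p = 0.318), and MCA-970 was -0.14 ± 0.34 from MCA-972 (adjusted p = 0.769). Equal levels were not shown by these tests. With the leukocyte marker level as a covariate, MCA-948 exceeded MCA-970 by 0.73 (adjusted p = 0.0144), still short of a doubling.

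**Figure D1:**
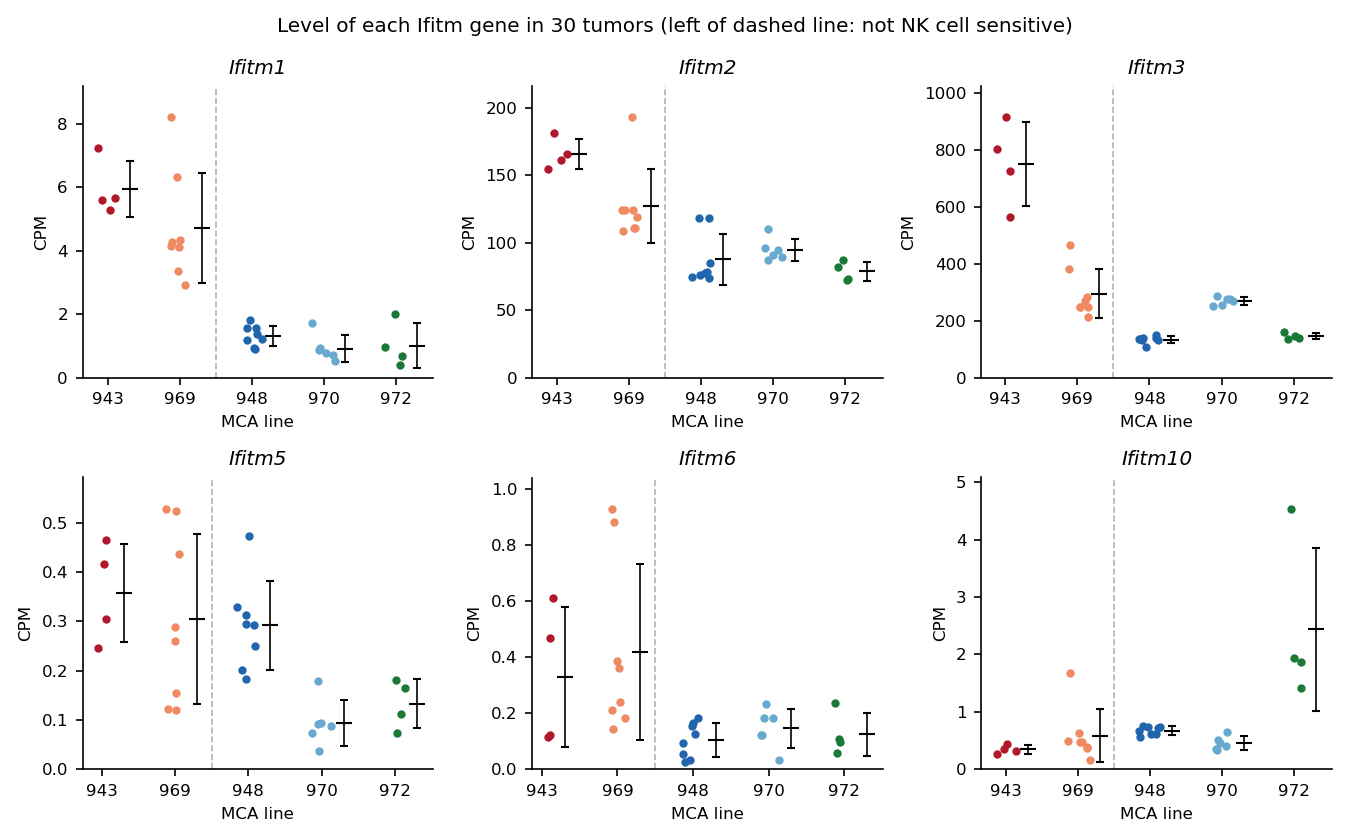
Level of the 6 tested Ifitm genes in each of 30 tumors, in CPM (linear axis from 0, different in each panel), by MCA line. Points are tumors, and the black mark and bar beside them give the mean and SD; lines left of the dashed line are labelled not NK cell sensitive. Ifitm1 tumors of MCA-943 and MCA-969 lie between 2.91 and 8.2 CPM, above the 0.39 to 2.01 CPM of the other lines, while the other panels overlap between the 2 sides.

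Between lines, a member was counted as called where the edgeR adjusted p was under 0.05 and the change at least 1 on the log2 scale, that is, at least a doubling. Across the label (each non-sensitive line minus each sensitive line, 6 comparisons), Ifitm2, Ifitm3 and Ifitm10 gave 18 tests, of which 6 were called higher and 2 lower in the non-sensitive line. The comparisons share tumors, so these calls are not independent. Ifitm6 passed the filter, which asked for 0.285 CPM in 4 tumors, through 2 MCA-943 and 4 MCA-969 tumors alone, and Ifitm5 through 2 MCA-943, 5 MCA-948 and 4 MCA-969 tumors, so these lines had to be among the high ones. Their 8 calls across the label were favored by the filter, are listed below only to account for each member, and are not read as evidence about the family.

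In the comparison of MCA-943 with MCA-948, Ifitm3 and Ifitm6 were called higher (2 of 5 members, against 17.7% of all genes higher and 11.3% lower). Against MCA-970, MCA-943 was higher in Ifitm3 and Ifitm5 (2 of 5; 12.6% of genes higher and 14.8% lower). Against MCA-972, it was higher in Ifitm2, Ifitm3 and Ifitm5 and lower in Ifitm10 (3 and 1 of 5), with 12.2% of genes higher and 13.4% lower. MCA-969 was higher than MCA-948 in Ifitm3 and Ifitm6 (2 of 5), in a comparison where 16.8% of genes were higher and 3.91% lower. MCA-969 was higher than MCA-970 in Ifitm5 and Ifitm6 (2 of 5), and 10.7% of genes were called in each direction there. Against MCA-972 it was higher in Ifitm3, Ifitm5 and Ifitm6 and lower in Ifitm10 (3 and 1 of 5), and 10.3% of genes were called in each direction. No member other than Ifitm1 was called in all 6 of these comparisons.

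Within the classes, Ifitm2, Ifitm3 and Ifitm10 gave 12 tests with 1 call higher and 3 lower, and Ifitm5 was called in 2. MCA-943 was higher than MCA-969 in Ifitm3 alone (1 of 5; 12.1% of genes higher, 14.9% lower). MCA-948 was higher than MCA-970 in Ifitm5 and lower in Ifitm3 (1 of 5 each way; 9.64% of genes higher, 19.8% lower). MCA-948 was higher than MCA-972 in Ifitm5 and lower in Ifitm10 (1 of 5 each way; 8.27% higher, 18.5% lower). MCA-970 was lower than MCA-972 in Ifitm10 (1 of 5; 8.56% of genes higher, 9.01% lower).

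**Figure D2:**
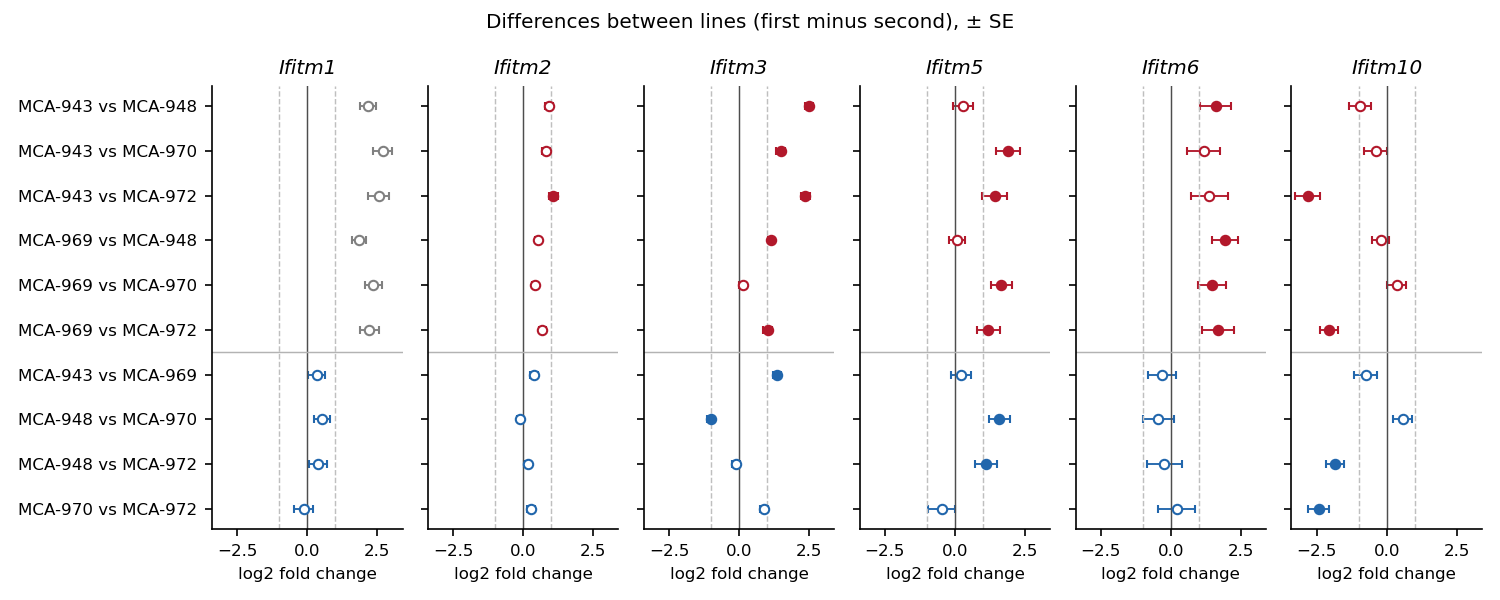
Log2 fold change (x axis) of 6 Ifitm genes in 10 comparisons of MCA lines (y axis, first line minus second), with SE bars. Red marks the 6 comparisons across the sensitivity label and blue the 4 within a class; filled points were called, dashed lines mark a change of 1, and grey marks the Ifitm1 values on which it was chosen. Grey Ifitm1 points lie between 1.84 and 2.68, whereas Ifitm3 runs from 0.13 to 2.49 and Ifitm10 from -2.82 to 0.36 in the same 6 comparisons.

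Ifitm3, the restriction factor of endosomes and the most abundant member, was highest in MCA-943. Its level there was 803 CPM in W-2G, 727 in a-1D, 565 in a-1G and 916 in a-R. In MCA-969 it ranged from 214 to 466 CPM (median 260) and in MCA-970 from 252 to 288 (median 274). MCA-948 (108 to 150 CPM, median 136) and MCA-972 (137, 146, 141 and 159 CPM) were the lowest lines and overlapped each other. Every MCA-943 tumor exceeded every other tumor, while MCA-969, a non-sensitive line, overlapped the sensitive line MCA-970.

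Ifitm3 was higher in MCA-943 than in MCA-948 by 2.49 ± 0.14 (log2, SE; edgeR adjusted p = 1.87e-15), than in MCA-972 by 2.37 ± 0.17 (adjusted p = 3.12e-12) and than in MCA-970 by 1.48 ± 0.15 (adjusted p = 1.17e-09). MCA-969 exceeded MCA-948 by 1.14 ± 0.12 (adjusted p = 1.81e-09). MCA-969 and MCA-970 differed by 0.13 ± 0.13 (adjusted p = 0.387), which did not pass the test. Ifitm3 also differed inside the classes: MCA-943 exceeded MCA-969 by 1.35 ± 0.14 (adjusted p = 1.54e-09), and MCA-948 lay at -1.01 ± 0.13 from MCA-970 (adjusted p = 3.38e-08). MCA-970 exceeded MCA-972 by 0.89 ± 0.16 (adjusted p = 2.73e-05), short of a doubling.

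For Ifitm3, 2 calls sat at the threshold. MCA-969 exceeded MCA-972 by 1.02 ± 0.15 (adjusted p = 1.61e-06), which became 0.88 within set 1, 0.99 without MCA-943 W-2G or a-1D, 0.95 without MCA-969 W-R, 0.89 without MCA-969 W-2D and just under 1 without MCA-972 2G, each with an adjusted p still under 0.05. It was 0.99 in DESeq2 and 0.89 with the title letter as a covariate. The difference of MCA-948 from MCA-970 was -0.99 within set 2, and it fell just short of 1 in size without MCA-943 W-2G, a-1D or a-1G, MCA-948 W-2G, MCA-969 a-2D, MCA-970 W-2D or MCA-972 a-1G (-0.98 at the smallest). Within set 2 the difference between MCA-969 and MCA-970 was 0.48 (adjusted p = 0.0269). Within sets 3 and 2, the values against MCA-948 were 2.47 for MCA-943 and 1.47 for MCA-969. The MCA-969 tumors of set 2 were W-1D and W-2D alone, both labelled sensitive, so its set 2 values compare tumors of the same label.

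Ifitm2, which restricts viruses in endosomes like Ifitm3, moved the same way as Ifitm1 but by less. MCA-943 tumors had 181, 155, 161 and 166 CPM, and MCA-969 tumors 109 to 193 (median 121). MCA-948 ran from 74.1 to 118 CPM (median 77.6), MCA-970 from 86.9 to 110 (median 92.8), and MCA-972 tumors had 72, 87.5, 73.4 and 81.7 CPM. The sides overlapped: 3 of 18 sensitive tumors reached the range of the non-sensitive ones. All 6 differences had an edgeR adjusted p under 0.05 and were positive, from 0.42 ± 0.12 (MCA-969 against MCA-970, adjusted p = 0.00345) to 1.08 ± 0.16 (MCA-943 against MCA-972, adjusted p = 1.24e-06), and only the last reached a doubling. That p alone was common. For MCA-943 against MCA-948, MCA-970 and MCA-972, 10887, 10258 and 9418 of 16862 genes passed it in either direction. For MCA-969 against MCA-948 and MCA-970, 10313 and 10327 did.

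The library set moved with Ifitm2 inside a line. Both MCA-948 tumors of set 2 had 118 CPM, whereas the 6 of set 3 had 74.1 to 84.6. Within set 3, MCA-943 exceeded MCA-948 by 1.07, past the threshold that 0.92 ± 0.13 missed over all tumors. With set as a covariate that difference was 1.10, and the difference of MCA-943 from MCA-970 was 1.41, both called. Within set 2, MCA-969 exceeded MCA-948 by 0.42 (adjusted p = 0.134, 2 tumors each) and MCA-970 by 0.75 (adjusted p = 0.00267), and within set 1 it exceeded MCA-972 by 0.56 (adjusted p = 5.31e-05). The 2 MCA-969 tumors of set 2 were those labelled sensitive, so the set 2 values compare tumors of the same label. What the set stands for in these values was not tested. Inside the classes, MCA-943 exceeded MCA-969 in Ifitm2 by 0.39 ± 0.13 (adjusted p = 0.013), and no other pair differed at an adjusted p under 0.05.

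For Ifitm1 the difference of MCA-943 from MCA-948 was 2.23 within set 3. Within set 2, MCA-969 stood 1.88 above MCA-948 and 2.66 above MCA-970, and within set 1 it stood 2.10 above MCA-972. In set 2, MCA-969 was represented only by W-1D and W-2D, both labelled sensitive, so its set 2 values compare tumors of the same label. The 4 MCA-943 tumors lay in a set that held neither MCA-970 nor MCA-972, so these comparisons had no value within a set.

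Because Ifitm1 and Ifitm2 differed by different amounts, their ratio changed between lines. Per 100 CPM of Ifitm2 there were 3.57 ± 0.328 (SD) CPM of Ifitm1 in MCA-943 and 3.85 ± 1.53 in MCA-969, against 1.52 ± 0.377 in MCA-948, 1.34 ± 1.02 in MCA-972 and 0.976 ± 0.462 in MCA-970. Against Ifitm3 the order was not that of the label: 1.7 ± 0.718 CPM of Ifitm1 per 100 CPM of Ifitm3 in MCA-969, 0.986 ± 0.22 in MCA-948, 0.811 ± 0.185 in MCA-943, 0.713 ± 0.532 in MCA-972 and 0.345 ± 0.173 in MCA-970. These ratios use values on which Ifitm1 was chosen and carry no test.

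Ifitm5, the osteoblast member, was near the detection limit everywhere. MCA-943 tumors had 0.305, 0.247, 0.416 and 0.465 CPM (9 to 19 reads), MCA-948 0.183 to 0.473 (median 0.293) and MCA-969 0.12 to 0.529 (median 0.274). MCA-970 ranged from 0.0368 to 0.179 CPM (median 0.0894), and MCA-972 tumors had 0.182, 0.164, 0.0734 and 0.111 CPM (3 to 7 reads). The low lines were thus MCA-970 and MCA-972, while the sensitive line MCA-948 stood with the non-sensitive lines. MCA-943 and MCA-969 differed from MCA-948 by 0.30 ± 0.36 (edgeR adjusted p = 0.47) and 0.08 ± 0.29 (adjusted p = 0.839).

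The differences from MCA-970 and MCA-972 are given as a description with no p, since the gene passed the filter through none of the tumors of these lines. From MCA-970 they were 1.89 ± 0.43 in MCA-943, 1.66 ± 0.38 in MCA-969 and 1.58 ± 0.38 in MCA-948. From MCA-972 they were 1.41 ± 0.45, 1.19 ± 0.41 and 1.11 ± 0.41. The last 2 were no longer called without MCA-972 a-1G (0.98 and 0.93), and the last also without MCA-948 W-2G (0.99) or MCA-972 a-R (1.04). The MCA-969 value was not called within set 1 (1.19), nor were the MCA-943 and MCA-948 values with set as a covariate (1.53 and 1.20).

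Of 10 osteoblast genes, 7 passed the filter, and they did not follow Ifitm5. Ibsp (bone sialoprotein) was called lower in the non-sensitive line in 5 of 6 comparisons, Dmp1 (a bone matrix phosphoprotein) higher in 4, Sp7 (the osteoblast transcription factor osterix) higher in 3 and lower in 1, and Col1a1 likewise. Runx2, the master factor of the osteoblast lineage, was called in none. In these 6 comparisons, 10.3 to 17.7% of all tested genes were called higher and 3.91 to 14.8% lower.

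Ifitm6 reads were few and unevenly spread. In MCA-943, W-2G and a-1D had 0.61 and 0.469 CPM, whereas a-1G and a-R had 0.113 and 0.122. MCA-969 ranged from 0.142 to 0.929 CPM (median 0.301), with W-2D and W-R at 0.929 and 0.883. The sensitive tumors had 0.0261 to 0.235 CPM, so the sides overlapped, with 7 of 12 non-sensitive tumors above all 18 sensitive ones. As a description with no p, since the gene passed the filter through non-sensitive tumors alone, MCA-969 lay above MCA-948 by 1.92 ± 0.46, MCA-970 by 1.48 ± 0.50 and MCA-972 by 1.69 ± 0.58. MCA-943 lay above MCA-948 by 1.61 ± 0.55, MCA-970 by 1.17 ± 0.58 and MCA-972 by 1.37 ± 0.65, of which only the first was called. Inside the classes the largest difference in size was -0.44, and no edgeR adjusted p was under 0.05.

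Single tumors decided several of these calls. Between MCA-943 and MCA-948 the call was lost without W-2G (1.18) or a-1D (1.36) of MCA-943, and between MCA-969 and MCA-972 it was lost without a-R of MCA-972 (1.46). The difference of MCA-943 from MCA-970 was called without MCA-943 a-R (1.46) or with the title letter as a covariate (1.39), and that from MCA-972 without MCA-943 a-1G, MCA-943 a-R or MCA-972 2G (1.60, 1.67 and 1.86). Within single sets the gene did not pass the filter.

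The 16 leukocyte markers summed to 30.8 to 153 CPM in MCA-943 and 20.4 to 135 in MCA-970, to 18.8 to 55 in MCA-948 and 11.4 to 42.3 in MCA-972, and to 9.66 to 28.4 in MCA-969. MCA-969 had the lowest range of these sums and MCA-943 the highest, with nearly equal Ifitm6 medians of 0.301 and 0.296 CPM. MCA-970 sums had a median of 28.4 CPM, against 75 in MCA-943, while their maximum of 135 came near the 153 of MCA-943. The median Ifitm6 of MCA-970 was 0.152 CPM. Which cells the Ifitm6 reads came from was not tested. Of 13 leukocyte markers tested, 9, 2 and 8 were called higher in MCA-943 than in MCA-948, MCA-970 and MCA-972, and none lower. Over all tested genes, 17.7, 12.6 and 12.2% were higher there. Against the same lines, MCA-969 had 1 marker higher each time and 5, 10 and 3 lower. Of all genes, 16.8, 10.7 and 10.3% were higher and 3.91, 10.7 and 10.3% lower in MCA-969. The 14 myeloid markers, Lyz2 and Csf1r among them, summed to 26.6 to 86.2 CPM in MCA-969, 34.8 to 152 in MCA-943, 38.3 to 181 in MCA-948, 41.1 to 427 in MCA-970 and 48 to 107 in MCA-972, and none of them was at 0 in every tumor. With the mean leukocyte marker level as a covariate, the Ifitm6 difference of MCA-943 from MCA-948 was 0.60, and that of MCA-969 from MCA-948 was 2.23. In bulk tumors, fewer cells of a type and less RNA per cell cannot be told apart.

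Ifitm10, on the same chromosome but outside the cluster, was high in 1 sensitive line. MCA-972 tumors had 4.54 (2G), 1.86, 1.93 and 1.42 CPM, whereas MCA-943 tumors had 0.441, 0.321, 0.265 and 0.343. MCA-948 ranged from 0.558 to 0.749 CPM (median 0.691), MCA-970 from 0.329 to 0.652 (median 0.432) and MCA-969 from 0.166 to 1.67 (median 0.472). MCA-972 exceeded all tumors of the other lines except MCA-969 W-R, at 1.67 CPM. From MCA-972, the log2 differences were -2.82 ± 0.44 in MCA-943 (edgeR adjusted p = 2.92e-06), -2.06 ± 0.33 in MCA-969 (adjusted p = 6.03e-06), -1.85 ± 0.33 in MCA-948 (adjusted p = 1.7e-05) and -2.43 ± 0.37 in MCA-970 (adjusted p = 3.81e-06). Within set 1, MCA-969 was at -1.94 from MCA-972 (adjusted p = 0.00715). With set as a covariate the MCA-943 and MCA-948 values were -2.08 (adjusted p = 0.0535) and -1.15 (adjusted p = 0.239).

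MCA-943 lay at -0.97 ± 0.40 from MCA-948 in Ifitm10 (adjusted p = 0.0337), just short of the threshold, which it passed without MCA-943 W-2G (-1.09), MCA-948 a-2D (-1.01) or MCA-972 a-1G (-1.02), and with the leukocyte marker level as a covariate (-1.32, adjusted p = 0.0182). The remaining Ifitm10 comparisons had an adjusted p of 0.0987 or more.

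Whether Ifitm1 varied together with its relatives from tumor to tumor was asked inside the 3 lines of at least 6 tumors, with the other 5 tested members, which gave 15 correlations of log2 CPM with two-sided exact permutation tests. With Ifitm2, Pearson's r was 0.54 in MCA-948, -0.18 in MCA-969 and -0.01 in MCA-970, none of them with an adjusted p under 0.05 in the exact permutation test (0.773, 0.773 and 0.983). With Ifitm3 it was 0.27, -0.11 and -0.79, with exact permutation p-values adjusted to 0.773, 0.937 and 0.344. The MCA-970 value rested on the 2 tumors farthest from the median of Ifitm1, without which r was -0.09. Spearman's rho for these 6 pairs ran from -0.71 to 0.57.

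The single correlation that passed was that of Ifitm1 with Ifitm10 in MCA-948, with r = 0.91 (exact permutation p = 0.00218, adjusted p = 0.0327, n = 8). Spearman's rho was 0.83 (exact permutation p = 0.0154, adjusted p = 0.231), and r was 0.81 without the 2 tumors farthest from the median of Ifitm1 (exact permutation p adjusted to 0.396). In the other lines the same pair gave r = -0.01 (MCA-969) and -0.45 (MCA-970). Within MCA-948, Ifitm10 spanned 18 to 33 reads. The 6 correlations with Ifitm5 and Ifitm6 lay between -0.49 and 0.43, none with an adjusted p under 0.05.

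**Figure D3:**
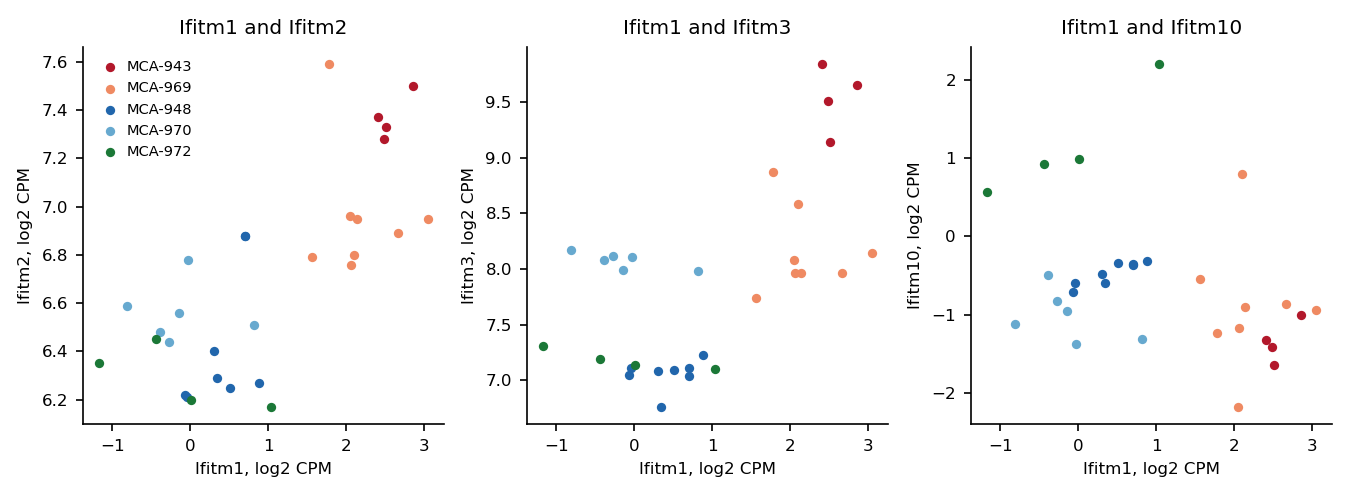
Log2 CPM of Ifitm2 (left), Ifitm3 (middle) and Ifitm10 (right) against log2 CPM of Ifitm1 in 30 tumors, colored by MCA line. The non-sensitive and sensitive tumors stand apart along the Ifitm1 axis, by which Ifitm1 was chosen, while lines of the same class overlap there, and points of 1 line show no shared slope with Ifitm2 or Ifitm3 (r of the deviations from line means -0.00 with Ifitm2 and -0.14 with Ifitm3).

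As a description over 5 line means, the r of Ifitm1 was 0.94 with Ifitm2, 0.89 with Ifitm6, 0.81 with Ifitm5, 0.77 with Ifitm3 and -0.60 with Ifitm10. These points share the lines on which Ifitm1 was chosen. After subtracting line means, the r over 30 tumors was -0.00 with Ifitm2, -0.14 with Ifitm3, 0.15 with Ifitm6, 0.26 with Ifitm5 and 0.27 with Ifitm10. Ifitm2 and Ifitm3 had an r of 0.44 with each other on the same measure, and Ifitm3 and Ifitm6 of 0.50.

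Among 16861 other tested genes ranked by r with Ifitm1 over 30 tumors, Ifitm2 stood at rank 224 (r = 0.74), Ifitm3 at 824 (0.61), Ifitm5 at 1040 (0.58), Ifitm6 at 1046 (0.58) and Ifitm10 at 13953 (-0.35). This ranking rests on the class difference by which Ifitm1 was chosen, so genes with a like difference had to rank high. The 5 most similar genes were Zfp296 (r = 0.91), Renbp (0.89), Gm10421 (0.89), Stxbp2 (0.89) and Gm15767 (0.88). Zfp296 encodes a zinc finger protein, Renbp a renin-binding epimerase and Stxbp2 a regulator of vesicle fusion. Renbp had 16.9 ± 1.16 CPM in MCA-943 and 12.4 ± 2.83 in MCA-969 (SD), against 3.13 ± 0.579, 2.12 ± 0.477 and 1.82 ± 1 in MCA-948, MCA-970 and MCA-972. By deviations from line means the genes ranked highest were others, among them Zeb2os (0.63), Sirt4 (0.63), Spib (0.62) and Med20 (0.61).

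The genes next to the cluster were compared in turn. Of 20 other genes within 100 kb of the cluster, 9 passed the filter, and over 54 gene-by-comparison values between the classes 16 were called higher and 2 lower in the non-sensitive line. Over all tested genes, 10.3 to 17.7% were called higher and 3.91 to 14.8% lower in these comparisons. Sigirr, an inhibitory receptor of the interleukin-1 and Toll-like receptor family beyond Ifitm6, was the single neighbor called higher in all 6. Its level was 19.9 ± 1.82 CPM in MCA-943 and 12.6 ± 3.62 in MCA-969 (SD), against 6.27 ± 1.5 in MCA-948, 1.25 ± 0.549 in MCA-970 and 0.489 ± 0.0493 in MCA-972. Its log2 differences ran from 1.01 ± 0.19 (MCA-969 against MCA-948, edgeR adjusted p = 4.16e-05) to 5.34 ± 0.34 (MCA-943 against MCA-972, adjusted p = 1.37e-13). The lowest of these sat at the threshold for a call. The share of all genes called higher in all 6 is not given here, so how unusual such a neighbor is was not tested. Sigirr also differed inside the sensitive class, where MCA-948 exceeded MCA-970 by 2.32 ± 0.23 (adjusted p = 5.76e-10) and MCA-972 by 3.67 ± 0.31 (adjusted p = 1.91e-11).

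Pkp3, a desmosomal plakophilin next to Sigirr, was called higher in 3 of the 6 comparisons, with log2 differences from -0.19 to 3.21. B4galnt4, a glycosyltransferase gene between Pkp3 and the cluster, was higher in 1 and lower in 2 (-2.26 to 2.28). On the other side, Pgghg, a collagen glucosidase gene next to Ifitm5, was called higher in the 3 comparisons of MCA-943 (1.14 to 1.42) and in none of MCA-969 (-0.14 to 0.15). Ric8a was called in 2, Bet1l in 1, and Sirt3, Psmd13 and Gm15542 in none. Sigirr aside, no neighbor was called in more than 3 of the 6.

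**Figure D4:**
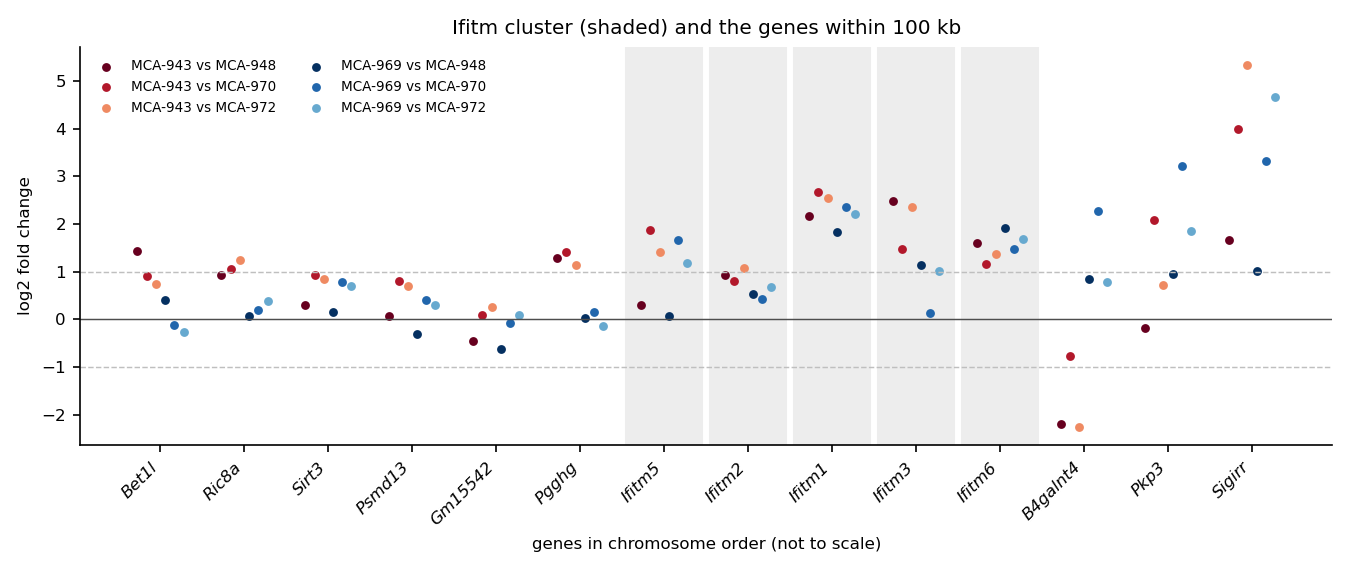
Log2 fold change (y axis) in the 6 comparisons across the sensitivity label, for the 5 Ifitm genes of the cluster (shaded) and the 9 genes within 100 kb that passed the filter, in chromosome order and not to scale. Each color is 1 comparison. All 6 values of Ifitm1 (1.84 to 2.68, on which it was chosen) and of Sigirr (1.01 to 5.34) are above 1, while Psmd13 runs from -0.30 to 0.80 and Gm15542 from -0.62 to 0.26. Those of Ifitm6 (1.17 to 1.92) are also above 1, though 2 of them were not called. Ifitm6 passed the filter through non-sensitive tumors alone, which favored high values there.

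Around Ifitm10, 4 of 16 genes within 100 kb passed the filter. Ctsd (cathepsin D) was called in none of the 6 comparisons, Lsp1 (a leukocyte actin-binding protein) was higher in the 3 comparisons of MCA-943, and Tnni2 (a muscle troponin) was higher in 4. Syt8 was called higher in 5 and lower in 1. None of them was called lower than MCA-972 in both non-sensitive lines, as Ifitm10 was. Like Ifitm10, Syt8 was called lower than MCA-972 in MCA-969 (-1.01 ± 0.42), MCA-948 (-2.02 ± 0.45) and MCA-970 (-2.96 ± 0.55). In MCA-943 it was higher (1.29 ± 0.44), and it held at most 28 reads in any tumor. Across the label, 10.3 to 17.7% of all tested genes were called higher and 3.91 to 14.8% lower per comparison.

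The interferon pathway was then read beside the family. None of 13 interferon ligand genes passed the filter, and Ifnb1 and Ifng had mean levels of at most 0.219 and 0.279 CPM, both highest in MCA-943. Of 5 tested receptor chains, Ifngr1, the ligand-binding chain of the interferon gamma receptor, was called higher in the 3 comparisons of MCA-943 (177 ± 11.5 CPM there, SD, against 48.2 to 71.6 CPM on average in the other lines). Ifnar1 was lower in MCA-969 than in MCA-970, and Il10rb was called higher in 1 comparison. Across the label, 10.3 to 17.7% of all tested genes were called higher and 3.91 to 14.8% lower per comparison.

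Of 45 interferon-stimulated genes outside the family, all tested, 42, 39 and 40 were called higher in MCA-943 than in MCA-948, MCA-970 and MCA-972, and none lower. Their median log2 differences were 4.79, 2.11 and 2.40, against -0.01, 0.03 and -0.01 over all tested genes. Of all tested genes, 17.7, 12.6 and 12.2% were called higher in these comparisons. MCA-969 had 32 higher than MCA-948 and none lower, with a median of 1.61. Against MCA-970, however, MCA-969 had none higher and 24 lower (median -1.03), and against MCA-972 none higher and 10 lower (median -0.59). Of all genes, 16.8, 10.7 and 10.3% were higher in MCA-969 than in MCA-948, MCA-970 and MCA-972, and 3.91, 10.7 and 10.3% lower. In MCA-969 against MCA-970 and MCA-972, Ifitm1 was higher by 2.35 and 2.22, a direction fixed by its selection. Ifitm2 was higher there by 0.42 and 0.69, while Ifitm3 was at 0.13 and 1.02. None of the 45 genes was called one way throughout the 6.

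Inside the classes, 41 of the 45 genes were higher in MCA-943 than in MCA-969 (median 3.12), where Ifitm3 differed by 1.35 and Ifitm1 by 0.33. MCA-948 had 39 lower than MCA-970 (median -2.80) and 38 lower than MCA-972 (median -2.37), where Ifitm3 was at -1.01 and -0.13 and Ifitm1 at 0.51 and 0.38. Between MCA-970 and MCA-972, 5 were higher and none lower (median 0.18). These comparisons share tumors.

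**Figure D5:**
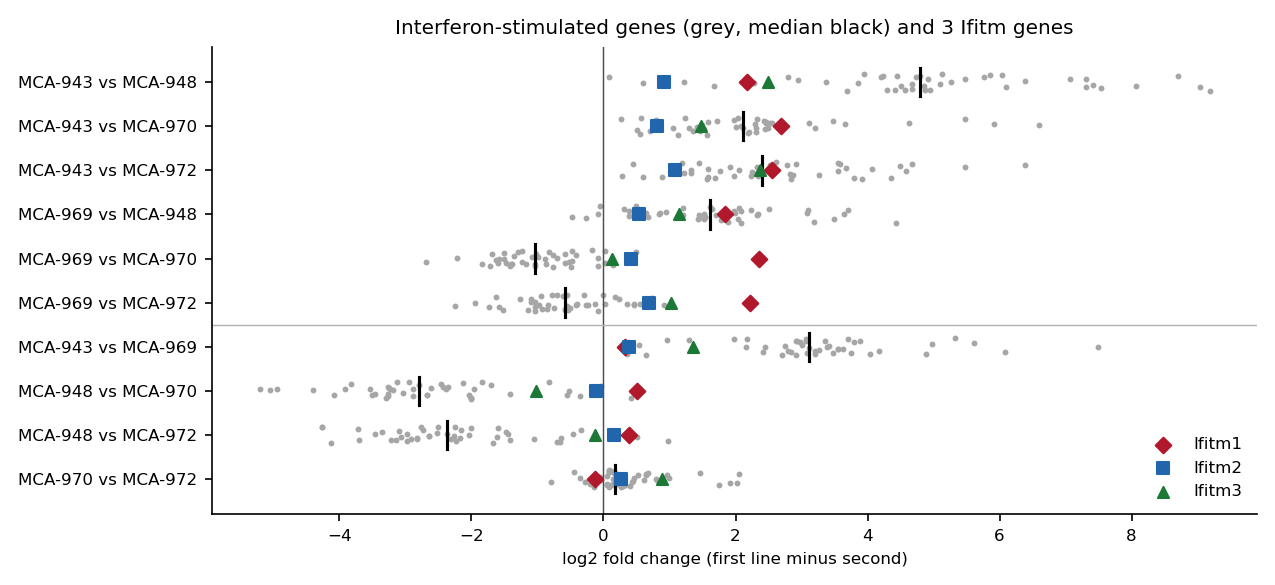
Log2 fold change (x axis) of 45 interferon-stimulated genes (grey points, black bar for their median) and of Ifitm1 (red), Ifitm2 (blue) and Ifitm3 (green) in 10 comparisons of MCA lines (y axis, first minus second). In MCA-969 against MCA-970 and MCA-972 the list's median is -1.03 and -0.59 while Ifitm1 is at 2.35 and 2.22, its selection values.

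Isg15, a ubiquitin-like protein induced by interferon, showed the pattern in single values. It had 83.6 ± 36.1 CPM in MCA-943 (SD), 25.4 ± 6.46 in MCA-970, 21.2 ± 3.18 in MCA-972, 9.62 ± 4.46 in MCA-969 and 2.68 ± 1.3 in MCA-948. Oasl2 (an oligoadenylate synthetase-like protein), Trim30a and the GTPase gene Mx2 were, like Isg15, called higher in 4 and lower in 2 of the 6 comparisons. The viral RNA-binding Ifit1 and Ifit3 were each higher in 4 and lower in 1. Bst2 (tetherin), Mx1 and Oas2 were each higher in 4 and lower in none.

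Among 18 signal transducers and feedback genes, 9, 5 and 10 were higher in MCA-943 than in MCA-948, MCA-970 and MCA-972, and none lower. Of all tested genes, 17.7, 12.6 and 12.2% were higher there. In MCA-969, 6, 0 and 1 were higher than in these lines, against 16.8, 10.7 and 10.3% of all genes. Lower in MCA-969 were 1 against MCA-948 and 2 against MCA-970, where 3.91 and 10.7% of all genes were lower. Irf7, which amplifies the type I response, was higher in 4 comparisons, as was Irf8, and Usp18, a brake on the type I receptor, was higher in 4 and lower in 1. Irf9, a DNA-binding subunit of the type I response complex, and Irf1 were each higher in 3.

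Of 11 genes whose products bind or modify IFITM proteins, Cd81, a tetraspanin found in complex with IFITM1, was called higher in 4 comparisons and had its highest level in MCA-943 (344 ± 15.5 CPM, SD) and its lowest in MCA-948 (70.5 ± 21.3). It did not separate MCA-969 from MCA-970 (0.30 ± 0.15, edgeR adjusted p = 0.0743) or MCA-972 (0.13 ± 0.16, adjusted p = 0.511). Cd151 and Fkbp11 were each higher in 2, the kinase Fyn was lower in 2, and the ubiquitin ligase Nedd4, which marks IFITM3 for degradation, the palmitoyltransferase Zdhhc20 and Vapa were called in none. Of 7 other CD225-domain genes 3 passed the filter, of which Syndig1, a synaptic protein, was called higher in 1 comparison and lower in 4, and had 0 reads in all 4 MCA-943 tumors, so no fold is given. Of 8 primordial germ cell genes, a cell type that Ifitm1 and Ifitm3 mark in the embryo, 4 passed, and Tfap2c was higher in 2 and lower in 3. Per comparison across the label, 10.3 to 17.7% of all tested genes were called higher and 3.91 to 14.8% lower.

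Between the title letters, over 26 tumors of the 4 lines that hold both, none of the 6 tested members was called (edgeR; 0.305% of 18025 genes called in either direction). At an unadjusted p under 0.05 there was 1, Ifitm6, with W above a by 0.94 ± 0.33 (adjusted p = 0.416), and DESeq2 called 0. Ifitm6 in MCA-969 had 0.181 to 0.929 CPM in 4 W tumors and 0.142 to 0.362 in 4 a tumors, so the letters overlapped. Ifitm1 differed by 0.20 ± 0.17 (adjusted p = 0.913) and Ifitm3 by 0.17 ± 0.09 (adjusted p = 0.721), the latter with 270 to 466 CPM in the W and 214 to 250 in the a tumors of MCA-969. Those W tumors include W-1D and W-2D, which are labelled sensitive and lie in another set. Mean Ifitm3 in W and a tumors was 133 and 134 CPM in MCA-948 and 265 and 275 in MCA-970. In MCA-943 it was 803 CPM in 1 W tumor and 736 on average in the a tumors.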

How the data were processed

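CD45- cells of 30 tumors gave RNA, extracted with a Qiagen kit and prepared by Illumina's instructions, per the labels and the study's methods. Per the submitters' notes the authors aligned reads with STAR (2.5.3a) to GRCm38, used Picard, and counted reads per gene with featureCounts (1.5.2; the paper's methods name another version); the strand setting is not given in the sources used here. The deposited table holds raw counts for 48440 genes, of which 48058 were named from GENCODE release 21. Column names carry the terms umi and rmdup, which name molecular identifiers and removed duplicates, and were matched to samples by the description label. Here, genes were filtered by edgeR's filterByExpr, scaled by TMM and fitted by line with the robust quasi-likelihood test (edgeR 4.0.16, R 4.3.3; biological coefficient of variation 0.221), with Benjamini-Hochberg adjustment over 16862 genes. CPM use the same scaling, and log2 CPM a prior count of 2. A call needed an adjusted p below 0.05 and a log2 change of 1 or more in size. The letters were fitted with line as a term. Correlations used exact permutation tests. DESeq2 1.42.0, other filters, covariates and left-out tumors were alternatives. Totals of 27745104 to 46537062 reads set the precision. The functions were tested on simulated data. Named genes were all members, all tested neighbors, the 5 most similar genes, up to 4 genes a list with calls in most of the 6 comparisons, and 10 fixed interferon and tetraspanin genes; 2 of the genes so named are not reported here. The members, lists and tests were chosen with earlier results of these data known.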

Additional observations from a re-analysis of the deposited data

Results flagged for a closer look

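Each of 30 groups (6 members in 5 lines) was checked for a tumor lying far from the rest of its line, and 2 stood out. Chance alone flags about 1 in 20 such groups, so 2 of 30 is near that rate. Ifitm2 in MCA-969 W-2D was 193 CPM, against 109 to 124 CPM in the other 7 tumors of the line. That tumor also had the highest Ifitm3 (466 CPM) and Ifitm6 (0.929 CPM) of its line and is labelled sensitive, against most of its line. Ifitm3 in MCA-948 W-2G was 108 CPM, against 131 to 150 CPM in the other 7. The same tumor had the highest Ifitm5 level of MCA-948 (0.473 CPM). The cause was not tested in either case.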

How the results depend on the processing

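Of the 50 tests of members other than Ifitm1 between lines, 22 were called (10 of them of Ifitm5 and Ifitm6, which the filter favored), and 5 with a log2 fold change of at least 2, 8 when genes needed a mean of 1 CPM (which removed Ifitm5, Ifitm6 and Ifitm10 from the test), and 19 to 24 when 1 tumor was left out. Without a fold threshold there were 30. In the comparisons of MCA-943 with the sensitive lines, 9418 to 10887 of all 16862 tested genes passed that cut. In comparisons of lines sharing a set of library numbers, 12 calls became 6 within sets, where fewer tumors were compared and Ifitm6, with 4 of the 12, did not pass the filter, and with set as a covariate there were 19 calls in all. Sample codes recur between lines, but tumors with the same code did not deviate together (29 pairs, median r 0.0248, range -0.43 to 0.411), so they were not treated as paired; with the code as a replicate block there were 19 calls. The lowest Ifitm1 difference between the classes was 1.84, and 1.60 to 1.92 over the alternatives, 1.78 with the replicate block. These refits use the comparisons on which Ifitm1 was chosen, so they are a description and no test of its difference. Calls near the cluster rose from 18 to 41 without a fold threshold. The 1 correlation that passed became 0 with Spearman's rho, without the 2 farthest tumors, on variance-stabilized counts, with library size alone as scaling, with line and set means removed, and at the lowest when 1 tumor was left out. No member changed direction where it was called, and of single values 27 lost and 9 gained a call over the alternatives; title letters gave 0 calls throughout. The replicate block changed 3 calls, all lost: Ifitm3 in MCA-969 against MCA-972 (0.83) and MCA-948 against MCA-970 (-0.95), and Ifitm6 in MCA-969 against MCA-972 (1.84). Ifitm5, Ifitm6 and Ifitm7, with at most 19, 30 and 6 reads per tumor, were limited by depth.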
